A study of Mus musculus with 4 samples.

Results

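A set of genes that are used as markers of alternatively activated macrophages were followed across the cell types of mouse lungs that carried small cell lung cancer: Retnla, Arg1, Chil3, Mrc1 and Spp1. They were taken by gene symbol, and make up 5 of the 31053 genes in the feature tables. They had been proposed with earlier results of these data in view, so their levels are given as a description and with no test. Single-cell RNA sequencing (10x 3′ chemistry, unique molecular identifiers, UMIs) had been run on live-sorted cells of whole digested lungs. There were 4 libraries, with 1 library for each of 4 groups of mice with orthotopic lung tumours. The control mice received vehicle and isotype IgG. The anti-PD-1 mice received 200 µg of the PD-1 blocking antibody clone 29F.1A12 per mouse on Mondays, Wednesdays and Fridays. The YKL-5-124 mice received 10 mg/kg of YKL-5-124, an inhibitor of the kinase CDK7, daily on weekdays, and the combination mice received both agents. Every group, control included, bore tumours, so no tumour-free lung serves as a baseline. The number of mice behind a library, their strain and their age were not given in the sources used here.

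Alternative activation is the state that macrophages enter when interleukin-4 or interleukin-13 signals through STAT6, and it is known from parasite infection, allergy and tissue repair. Retnla encodes the secreted protein RELM-alpha (FIZZ1), Chil3 the secreted chitinase-like protein Ym1, Arg1 the enzyme that splits arginine into ornithine and urea, Mrc1 the mannose receptor CD206 and Spp1 the secreted matrix protein osteopontin. None of the 5 is restricted to macrophages: airway epithelium can make RELM-alpha, group 2 innate lymphoid cells (ILC2) hold arginase 1, and monocytes and neutrophil precursors can express Chil3.

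On the GRCm38 build (GENCODE M21), all 5 are protein-coding genes on different chromosomes. Retnla (ENSMUSG00000061100) lies at chr16:48842551-48844461 on the plus strand, with 1 transcript of 4 exons. Arg1 (ENSMUSG00000019987) lies at chr10:24915221-24927484 on the minus strand, and Chil3 (ENSMUSG00000040809) at chr3:106147554-106167564 on the minus strand. Mrc1 (ENSMUSG00000026712) lies at chr2:14229392-14332057 and Spp1 (ENSMUSG00000029304) at chr5:104435118-104441050, both on the plus strand. Because the reads come from transcript 3′ ends, levels were compared within a gene and not between genes. Promoter sequences, from 250 bases before to 50 bases after the start, were matched for 4 of the 5 members in RefSeq (GRCm38.p6): Retnla, Chil3, Mrc1 and Spp1. They were searched on both strands for a STAT6-type motif (TTC, any 4 bases, GAA) and a C/EBP-type motif, TTGCNNAA. The promoters of Retnla and Chil3, at chr16:48842359-48842658 (plus strand) and chr3:106167515-106167814 (minus strand), are shown because both genes are classed as STAT6 targets, while the data below place them in different cells. Capitals mark the motif matches.
Retnla: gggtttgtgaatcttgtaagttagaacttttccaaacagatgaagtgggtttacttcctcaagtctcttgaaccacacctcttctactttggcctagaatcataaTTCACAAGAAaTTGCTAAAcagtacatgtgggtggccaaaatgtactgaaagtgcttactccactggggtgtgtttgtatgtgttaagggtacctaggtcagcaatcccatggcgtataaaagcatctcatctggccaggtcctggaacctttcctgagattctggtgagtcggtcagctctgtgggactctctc
Chil3: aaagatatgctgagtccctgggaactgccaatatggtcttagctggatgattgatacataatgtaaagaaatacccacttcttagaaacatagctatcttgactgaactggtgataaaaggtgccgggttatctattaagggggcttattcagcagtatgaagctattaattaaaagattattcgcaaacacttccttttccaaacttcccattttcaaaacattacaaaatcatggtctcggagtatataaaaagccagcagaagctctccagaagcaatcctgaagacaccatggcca
Positions count from the RefSeq start of the window, which for Retnla lies downstream of the GENCODE gene start given above. The Retnla window holds the STAT6-type match TTCACAAGAA at positions -145 to -136 from the start, and the C/EBP-type match TTGCTAAA at -134 to -127. They lie on 1 stretch with 1 base between them and do not overlap. Neither motif was matched in the Chil3 or Mrc1 window or in the first of the 2 Spp1 windows, and the second Spp1 window holds 1 C/EBP-type match. Among all 32851 mouse promoter windows of that length, 6.95% hold the STAT6-type motif, 10.8% the C/EBP-type motif and 0.840% both. A match describes the letters in the window only.

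After filtering (at least 500 UMIs and 300 genes, at most 10% mitochondrial UMIs) and removal of predicted doublets, 13985 cells remained: 3384 control, 2676 anti-PD-1, 4014 YKL-5-124 and 3911 combination, from libraries of 17329001 to 22950622 UMIs in all. Median depth was 1913 to 2193 UMIs per cell. Cells were clustered without the 5 members or their paralogs, and clusters are called "X-like" from marker genes. The libraries were not fully separate: 643 cell barcodes occurred in 2 or more libraries, 404 of them in all 4, giving 2164 cells. Of these, 2000 were among the 3606 tumour-like cells, 20 among the 1445 monocyte- or macrophage-like cells, 2 among the 71 epithelial cells and none among the 142 ILC2-like cells. In a shared barcode, the deepest copy had a median of 43.6 times the UMIs of the shallowest. Results in tumour-like cells are therefore given with and without such cells.

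With 1 library a group there is no replicate check and no test. The intervals below are exact 95% intervals (Clopper-Pearson for shares, Poisson or conditional binomial for UMI counts) and cover counting error only, not differences between mice. Those for UMI counts and ratios treat each UMI as independent. They therefore also leave out the uneven spread of UMIs over cells, and are too narrow where few cells hold most UMIs. UMIs of a member often lay in few cells, so the numbers of cells with at least 1 UMI (positive cells) are given beside levels in CPM, the gene's UMIs in ppm of all UMIs of the cell set. As the measure of free RNA, the 2237 B cell-like cells (median depth 1516 UMIs) held 1 to 6 positive cells per member: 4 for Retnla, 4 for Arg1, 6 for Chil3, 1 for Mrc1 and 6 for Spp1.

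The monocyte- or macrophage-like class took 178 control, 196 anti-PD-1, 503 YKL-5-124 and 568 combination cells, and values below follow that order of libraries. Its makeup differed between libraries. Classical monocyte-like cells (Ly6c2, Ccr2) made up 11.2%, 13.3%, 31.6% and 20.1% of the class. The 3 sub-clusters that took the C1q macrophage name made up 23.6%, 21.9%, 8.55% and 7.22%. A Pf4/Ms4a7 sub-cluster (76 cells) had all 9 C1q macrophage markers. An Atp6v0d2 sub-cluster (67 cells) had 8 of them and 6 of 10 alveolar macrophage markers. An Mgl2 sub-cluster (26 cells, median 6098 UMIs, led by Ccl17, Mgl2 and Lyz1) had 8 of them at a summed level of only 2067 CPM, against 18829 CPM in the Pf4/Ms4a7 sub-cluster, and 7 of 9 T cell and 5 of 10 dendritic cell markers in at least 10% of its cells. In the Mgl2 sub-cluster, 4 of the 9 C1q macrophage markers met the 2-fold naming rule. Its leading genes also held Hist1h1b, Hist1h2ap, Pclaf and Birc5, which are genes of dividing cells. It is called by a leading gene, and the part of other cell types in it was not tested. Another sub-cluster, led by the chemokines Ccl17 and Ccl24 and the elastase Mmp12 (78 cells, 2, 6, 24 and 46 by library, median 7267 UMIs), took no subset name. These 4 are called the macrophage sub-clusters below (247 cells: 44, 49, 67 and 87).

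The 5 genes lay in different cells (plot of where UMIs and positive cells lie). Of the Retnla UMIs, 58.5% were in 2 epithelial sub-clusters and 33.7% in macrophage sub-clusters. Of the Arg1 UMIs, 43.1% were in tumour-like cells, 38.6% in macrophage sub-clusters and 13.9% in ILC2-like cells. With libraries pooled, Chil3 lay mainly in monocytes, with 64.7% of its UMIs in monocyte sets. In control alone, macrophage sub-clusters held 343 of its 879 UMIs. Classical monocyte-like cells there held 137 and nonclassical ones 126, with another monocyte set left aside. Mrc1 and Spp1 had their largest shares in macrophage sub-clusters, 43.6% and 64.3%.

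**Figure D1:**
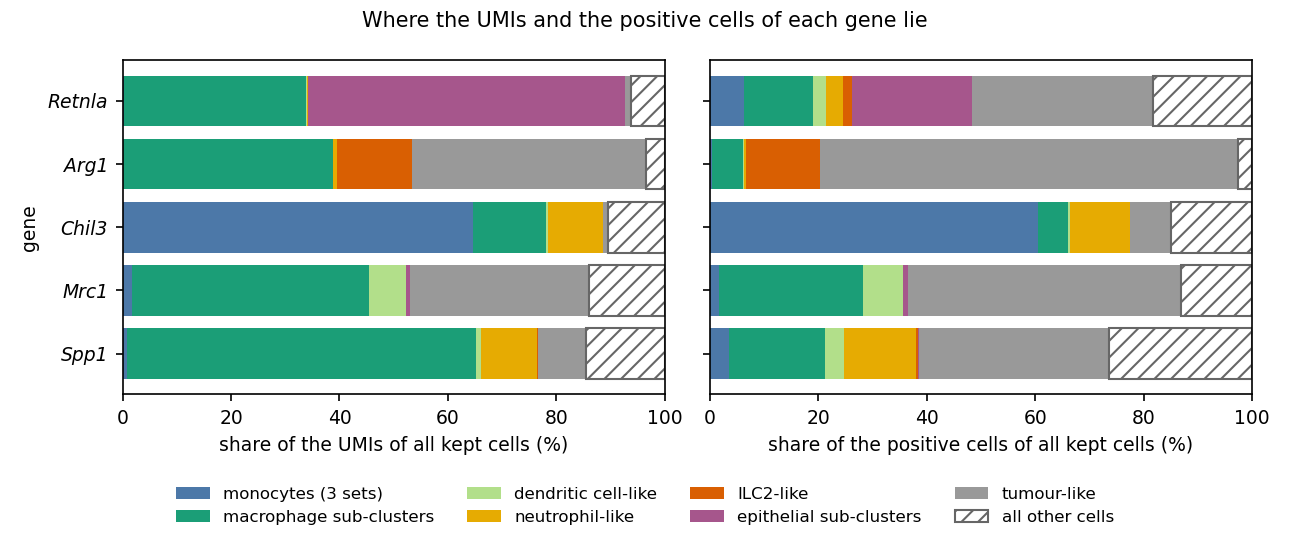
Share of each gene's UMIs (left, %) and of its positive cells (right, %) that lay in each group of cells, 4 libraries pooled. The purple epithelial part of the Retnla bar holds 58.5% of its UMIs, and the grey tumour-like part of the Arg1 bar holds 43.1% of its UMIs and most of its positive cells.

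**Figure D2:**
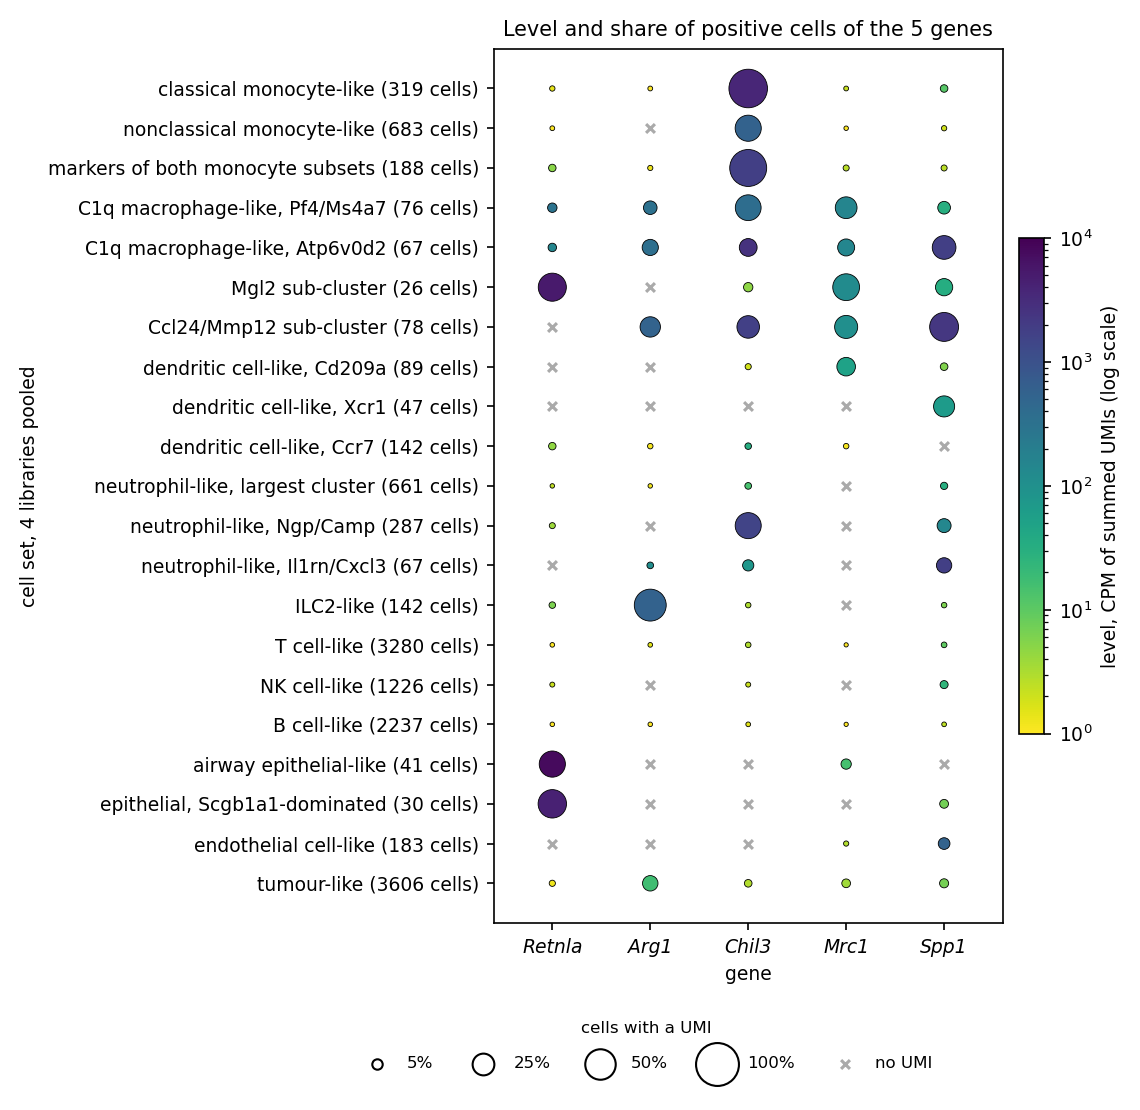
Level (colour, CPM of summed UMIs on a log scale) and share of positive cells (dot area) of the 5 genes in cell sets named by markers or leading genes, 4 libraries pooled, with a cross where no UMI was found. Retnla is high in both epithelial sub-clusters and the Mgl2 sub-cluster, Arg1 in ILC2-like cells and 3 macrophage sub-clusters, and Chil3 in the monocyte sets.

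Retnla was detected in 126 cells: 3, 28, 27 and 68 by library, with 90, 1146, 889 and 1618 UMIs. Its highest level was in epithelium. In the airway epithelial-like sub-cluster 15 of 41 cells were positive (1 of 4, 2 of 6, 2 of 10 and 10 of 21) at a pooled level of 7868 CPM. A second epithelial sub-cluster had 13 positive of 30 (0 of 3, 1 of 4, 5 of 6 and 7 of 17) at 4225 CPM. The naming rule matched that sub-cluster to alveolar epithelium, with 9 of 9 alveolar markers met, but its markers were mixed. Summed airway markers reached 561373 CPM against 24027 CPM for alveolar ones, in sums over different genes. Scgb1a1, the club cell secretoglobin, was in 27 of 30 cells and the surfactant gene Sftpc in 8 of 30. Sftpa1, another surfactant gene on the alveolar list, was in 13 of 13 Retnla-positive and 16 of 17 other cells. The sub-cluster was left without a cell type name and is called the Scgb1a1-dominated sub-cluster here.

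The positive epithelial cells carried club cell genes. In the airway epithelial-like sub-cluster, Scgb1a1 was found in 15 of 15 Retnla-positive and 16 of 26 other cells, and Scgb3a2 in 11 of 15 and 10 of 26. Foxj1, the regulator of ciliated cells, was found in 2 of the 15. The positive cells were also deeper, with a median of 4619 UMIs against 2353.5. In the Scgb1a1-dominated sub-cluster Scgb1a1 was in 13 of 13 positive and 14 of 17 other cells, and Scgb3a2 in 12 of 13 and 11 of 17. Median depth there was 4428 against 2441 UMIs. The macrophage gene C1qa was in 0 of these 13 positive cells and in 1 of the 15 airway epithelial-like ones. The lysozyme gene Lyz2 was in 5 of 13 and 7 of 15, beside 7 of 17 and 7 of 26 other cells. A single airway cell of the anti-PD-1 library held 578 Retnla UMIs, and the 5 highest cells held 84.3% of the airway UMIs.

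Over both epithelial sub-clusters, Retnla-positive cells were 1 of 7, 3 of 10, 7 of 16 and 17 of 38. The shares were 14.3% (interval 0.361% to 57.9%), 30.0% (6.67% to 65.2%), 43.8% (19.8% to 70.1%) and 44.7% (28.6% to 61.7%). The control interval takes in the point values of the 3 treated libraries, so at 7 control cells a difference was not detectable. Levels were 2178, 18369, 4562 and 6054 CPM, and the high anti-PD-1 value rests largely on the cell with 578 UMIs.

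Among immune cells, Retnla lay mostly in the small Mgl2 sub-cluster. There 11 of 26 cells were positive, 1 of 3, 3 of 6, 3 of 7 and 4 of 10, with 10, 468, 295 and 350 UMIs. The median was 61 UMIs in a positive cell and the highest was 309. Every library therefore had positive cells in it, with wide intervals. Lyz2, the myeloid lysozyme gene, was found in 11 of the 11 positive and 15 of the 15 negative cells. Mgl2, a macrophage and dendritic cell lectin, was in 7 of 11 and 12 of 15. C1qa was in 4 of 11 and 5 of 15, and the myeloid receptor gene Csf1r in 5 of 11 and 8 of 15. Scgb1a1 was found in 1 and Sftpc in 0 of the 11. The T cell gene Trbc2 was in 0 of the 11 and in 5 of the 15 negative cells of the sub-cluster, and the dendritic cell chemokine gene Ccl17 was in 1 of 11 and 9 of 15. The positive cells were shallower, with a median of 4454 UMIs against 9875 in the negative cells. The part of depth in these contrasts was not tested. Other macrophage sub-clusters held few positives: 3 of 76 in the Pf4/Ms4a7 sub-cluster, 2 of 67 in the Atp6v0d2 sub-cluster and 0 of 78 in the Ccl24/Mmp12 sub-cluster, with an exact upper limit of 4.62% for cells with a UMI.

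The order of pooled Retnla levels was airway epithelial-like, then the Mgl2 sub-cluster, then the Scgb1a1-dominated sub-cluster. The library values of these 3 sets overlapped: 2471 to 36669 CPM in airway epithelial-like cells, 522 to 10595 CPM in the Mgl2 sub-cluster, and 1829 to 10234 CPM in the Scgb1a1-dominated sub-cluster, where the control library had no UMI in 3 cells. Tumour-like cells held 42 positive cells of 3606, of which 36 had a shared barcode. Without shared barcodes 6 of 1606 tumour-like cells were positive (0.374%, median depth 6967 UMIs), beside 4 of 2237 B cell-like cells. Barcodes with 10 to 100 UMIs, taken as free RNA, held 13.6, 59.1, 43.3 and 119.5 CPM of Retnla, so the free RNA also held more in the treated libraries. Its part in the few positive cells of other types was not tested.

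Arg1 was detected in 569 cells, 160, 127, 143 and 139 by library. The cells with the largest positive share were ILC2-like, lymphocytes without antigen receptors that make type 2 cytokines. There 13 of 33, 18 of 23, 20 of 37 and 27 of 49 cells were positive. The shares were 39.4% (interval 22.9% to 57.9%), 78.3% (56.3% to 92.5%), 54.1% (36.9% to 70.5%) and 55.1% (40.2% to 69.3%). Control was lowest and anti-PD-1 highest, with intervals that overlap narrowly. Control ILC2-like cells were also the shallowest, with a median of 1851 UMIs. The medians were 2261, 2371 and 2317 UMIs in the treated libraries, of which anti-PD-1 had the lowest. With each cell thinned to 1000 UMIs (shallower cells left out), the positive cells were 6 of 26, 9 of 22, 16 of 36 and 18 of 44, or 23.1%, 40.9%, 44.4% and 40.9%.

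In level, Arg1 in ILC2-like cells was 462, 690, 563 and 604 CPM, with a median of 2 UMIs in a positive cell and a highest value of 13. The library levels span less than 1.5-fold, and the pooled level was 580 CPM. The positive cells held the ILC2 regulator gene Gata3 in 61 of 78 cells, Il5 in 18 and Il13 in 5. The 64 negative cells held them in 46, 6 and 3. The myeloid receptor gene Csf1r and C1qa were found in 0 of the 78 positive cells.

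In the macrophage sub-clusters Arg1 was found in fewer cells, with more UMIs in each. Positive cells were 3 of 44, 11 of 49, 8 of 67 and 11 of 87, or 6.82% (interval 1.43% to 18.7%), 22.4% (11.8% to 36.6%), 11.9% (5.30% to 22.2%) and 12.6% (6.48% to 21.5%). The anti-PD-1 library had the highest share, and all 4 intervals overlap. Median depth of these cells was 3064.5, 3986, 5345 and 6328 UMIs. Thinned to 1000 UMIs, the Arg1-positive cells were 3 of 39, 9 of 48, 4 of 66 and 9 of 84 (7.69%, 18.8%, 6.06% and 10.7%). Levels were 65.6, 964, 191 and 386 CPM. In the Ccl24/Mmp12 sub-cluster 17 of 78 cells were positive (0 of 2, 3 of 6, 3 of 24 and 11 of 46) with a median of 20 UMIs and a highest value of 71. Within it Ccl24 was found in 10 of the 17 positive and 10 of the 61 other cells, and Mmp12 in 4 of 17 and 36 of 61. In the 3 sub-clusters with the C1q name the positives were 3 of 42, 8 of 43, 5 of 43 and 0 of 41, so the combination positives among macrophages were all in the Ccl24/Mmp12 sub-cluster. The Mgl2 sub-cluster held no Arg1 UMI in its 26 cells, with an exact upper limit of 13.2% for cells with a UMI.

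Tumour-like cells made up most Arg1-positive cells, 438 of 569, at a low and even level. The levels were 16.9, 16.9, 17.8 and 15.8 CPM, with a median of 1 UMI in a positive cell and a highest value of 6. Of these positives 258 had a shared barcode. Without them 180 of 1606 tumour-like cells were positive at 18 CPM, and with only them 258 of 2000 at 16.2 CPM, so the level was alike in both kinds. Free RNA held 11.2 to 20.1 CPM of Arg1, near the tumour-like level, while B cell-like cells held 4 positives of 2237. Thinned to 1000 UMIs, 40 of 2621 tumour-like cells were positive (1.53%). Both epithelial sub-clusters together had no Arg1 UMI in 71 cells, with an exact upper limit of 5.06% for cells with a UMI.

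**Figure D3:**
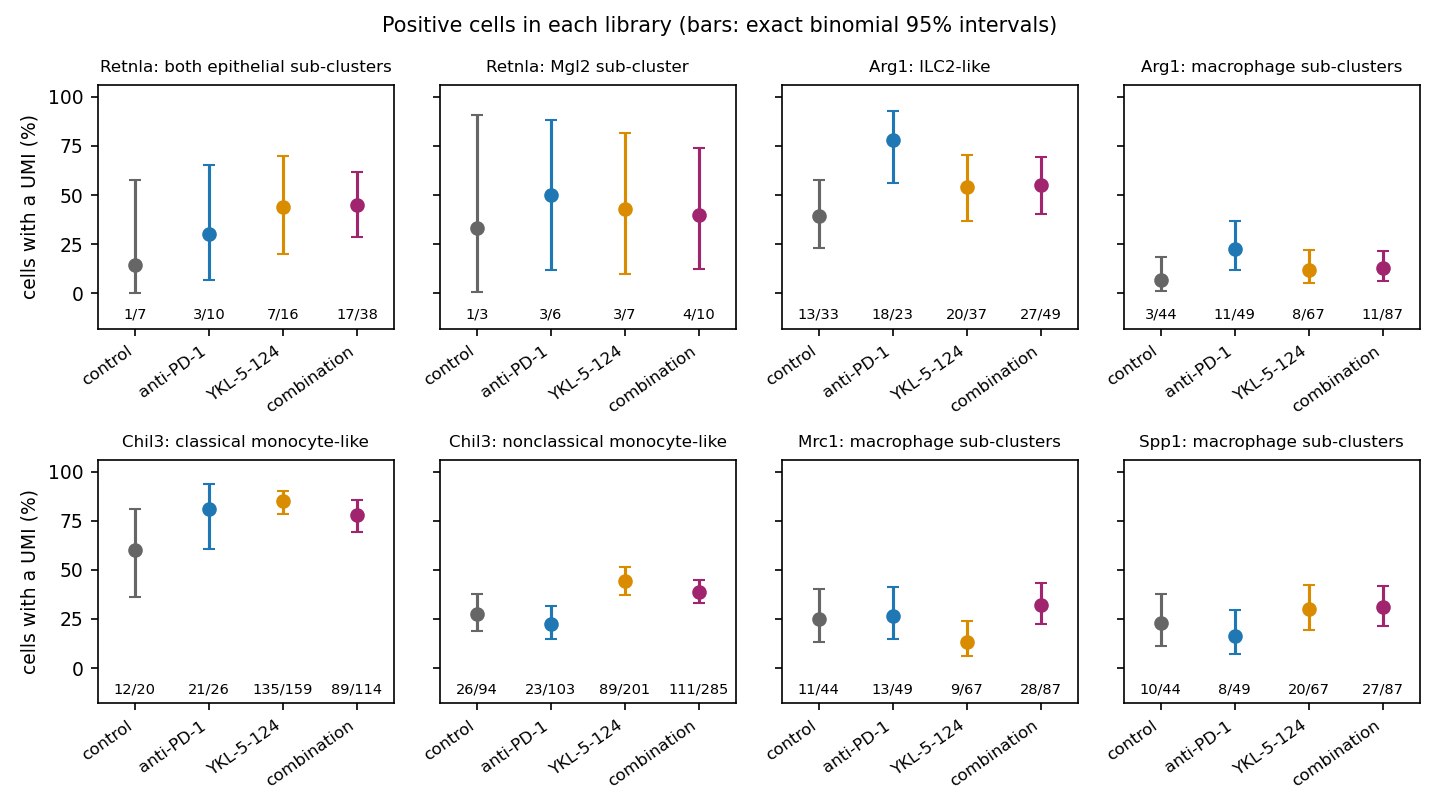
Share of cells with at least 1 UMI (%, vertical axis) for a gene in a cell set, by library (horizontal axis), with exact binomial 95% intervals as bars and the numbers of positive and all cells under each point. Control has the lowest point for Retnla in epithelium, Arg1 in ILC2-like cells and macrophage sub-clusters and Chil3 in classical monocyte-like cells, with intervals that mostly overlap those of the treated libraries.

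Chil3 was the member with the most positive cells, 1067, of which 705 were monocyte- or macrophage-like (60 of 178, 68 of 196, 288 of 503 and 289 of 568). In classical monocyte-like cells, the inflammatory monocytes recruited from blood, 12 of 20, 21 of 26, 135 of 159 and 89 of 114 were positive. These are 60.0% (interval 36.1% to 80.9%), 80.8% (60.6% to 93.4%), 84.9% (78.4% to 90.1%) and 78.1% (69.4% to 85.3%). Levels were 1489, 5125, 4144 and 3041 CPM, 3.44-, 2.78- and 2.04-fold over control. Positive cells held a median of 2.5, 18, 17 and 14 UMIs. Control was thus lower in level, in share and in UMIs per positive cell, but it had only 20 cells, 5 of which held 92.0% of its Chil3 UMIs. With cells thinned to 1000 UMIs, 7 of 20, 20 of 25, 121 of 158 and 82 of 113 were positive.

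Nonclassical monocyte-like cells, the patrolling subset, held less Chil3, and its level was closer across libraries. Positive cells were 26 of 94, 23 of 103, 89 of 201 and 111 of 285 (27.7%, 22.3%, 44.3% and 38.9%), and levels were 483, 545, 529 and 634 CPM. The shares in the YKL-5-124 and combination libraries were higher, while the levels were not separated in that way. Median depth moved with the shares, at 2106.5, 1937, 2809 and 2705 UMIs. Thinned to 1000 UMIs, the shares were 21.3%, 13.4%, 28.9% and 27.6%. A sub-cluster with markers of both monocyte subsets had 10 of 20, 13 of 18, 50 of 69 and 66 of 81 positive cells, at 1270, 2247, 1480 and 2077 CPM. Pooled levels fell in the order classical, both-marker and nonclassical, with overlapping library ranges for classical and both-marker cells and with the nonclassical range below both.

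In the Atp6v0d2 sub-cluster, 11 of 67 cells were Chil3-positive (7 of 26, 3 of 17, 0 of 12 and 1 of 12) and the pooled level was 2726 CPM. By library its levels were 5268, 2287, 0 and 406 CPM, with control highest. The positive cells differed from the rest in alveolar macrophage markers, a difference described after they were picked by Chil3. Ear1 was found in 8 of 11 positive and 0 of 56 other cells, and Plet1 in 9 of 11 and 4 of 56. C1qa was found in 0 of 11 and 47 of 56. Marco, another alveolar macrophage marker, was in 2 of 11 and 4 of 56, and median depth was 3009 against 1734 UMIs. In the Ccl24/Mmp12 sub-cluster 21 of 78 cells were positive, and 1047 of its 1062 Chil3 UMIs were in the combination library, 446 of them in 1 cell.

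Over the macrophage sub-clusters the direction of Chil3 was opposite to that in classical monocyte-like cells. Its levels were 2250, 670, 109 and 1778 CPM, from 12 of 44, 11 of 49, 14 of 67 and 23 of 87 positive cells. The ratios to control were 0.298 (interval 0.243 to 0.364), 0.0483 (0.0340 to 0.0669) and 0.790 (0.699 to 0.895), so every treated library was lower in level, while the positive shares were close. In the 3 sub-clusters with the C1q name the ratios were 0.311, 0.0540 and 0.0735. Of the 343 control UMIs in macrophage sub-clusters, 306 lay in 7 cells of the Atp6v0d2 sub-cluster.

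Neutrophil-like cells split by maturity genes. In the Ngp/Camp cluster, named after granule genes of immature neutrophils, 104 of 287 cells held Chil3. Of these cells 273 came from the YKL-5-124 library (99 positive) and 13 from the combination library (5 positive). The granule genes Ltf and Camp were found in 90 and 100 of the 104 positive cells and in 40 and 99 of the 183 others. In the largest neutrophil-like cluster, led by S100a8 and Retnlg, 10 of 661 cells held Chil3. A cluster of 86 cells with monocyte and neutrophil markers, left unnamed, had 49 positive cells.

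Mrc1 gave few UMIs, 388 in 230 cells. In the macrophage sub-clusters, 11 of 44, 13 of 49, 9 of 67 and 28 of 87 cells were positive (25%, 26.5%, 13.4% and 32.2%), at 131, 130, 82.1 and 149 CPM. YKL-5-124 was lowest. Thinned to 1000 UMIs, as depth differed between these libraries, the shares were 12.8%, 10.4%, 6.06% and 10.7%. In the 3 sub-clusters with the C1q name the summed level was 146, 146, 139 and 137 CPM, with 11 of 42, 12 of 43, 7 of 43 and 9 of 41 positive. Within them the levels went in different directions. The Pf4/Ms4a7 sub-cluster had 66.5, 100.3, 196 and 193 CPM (4, 10, 26 and 19 UMIs). The Atp6v0d2 sub-cluster had 258, 174, 0 and 0 CPM (15, 6, 0 and 0 UMIs). The ratios to control in the Pf4/Ms4a7 sub-cluster were 1.51 (interval 0.435 to 6.59), 2.95 (1.02 to 11.6) and 2.91 (0.966 to 11.7), which rest on 4 control UMIs in 3 cells. The Ccl24/Mmp12 sub-cluster differed more, with 0 of 2, 1 of 6, 2 of 24 and 19 of 46 positive cells. Among the sub-clusters, 10 of 26 Mgl2, 19 of 76 Pf4/Ms4a7 and 10 of 67 Atp6v0d2 cells held Mrc1. Dendritic cell-like cells with Cd209a, the mouse DC-SIGN homologue, also held it, in 16 of 89 cells at 49.6 CPM. Tumour-like cells held 116 positives of 3606 at 3.73 CPM. Without shared barcodes there were 43 of 1606 at 3.80 CPM, beside 1 of 2237 B cell-like cells. Free RNA held 5.33, 4.25, 3.08 and 2.75 CPM of Mrc1, near the tumour-like level, and its part there was not tested.

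Spp1 was concentrated in single cells. In the Ccl24/Mmp12 sub-cluster 1 of 2, 3 of 6, 10 of 24 and 21 of 46 cells were positive, at 600, 448, 2900 and 2346 CPM. A positive cell held a median of 8 UMIs, and the highest held 585. Gpnmb, a gene of lipid-laden macrophages, was found in 18 of the 35 positive cells and in 1 of the 43 others. In the Atp6v0d2 sub-cluster 20 of 67 cells were positive (9 of 26, 3 of 17, 5 of 12 and 3 of 12). Its levels were 1756, 116, 289 and 6051 CPM, and 1 combination cell held 141 UMIs. Atp6v0d2, a proton pump subunit of osteoclasts and some macrophages, was in 15 of the 20 positive and 20 of the 47 other cells.

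Over all macrophage sub-clusters, Spp1-positive cells were 10 of 44, 8 of 49, 20 of 67 and 27 of 87. The shares of 22.7%, 16.3%, 29.9% and 31.0% stood beside levels of 728, 101, 1338 and 1763 CPM. Thinned to 1000 UMIs, the shares were 15.4%, 10.4%, 16.7% and 16.7%, so the YKL-5-124 and combination libraries came close to control. Outside macrophages, Spp1 reached 1804 CPM in an Il1rn/Cxcl3 neutrophil-like cluster, where 8 of 67 cells were positive. By library its levels there were 304, 4496, 5531 and 111 CPM (2, 77, 59 and 5 UMIs). The neutrophil marker Csf3r was in 0 of the 8 positive and 19 of the 59 other cells, and S100a8 in 6 of 8 and 33 of 59. Endothelial cell-like cells had 12 positives of 183 (548 CPM), of which 9 held the endothelial gene Pecam1 and 0 held Csf1r, and 5 cells held 95.8% of the UMIs. Dendritic cell-like cells with Xcr1, the cross-presenting subset, had 11 positives of 47, and tumour-like cells 129 of 3606 at 6.90 CPM. Without shared barcodes the tumour-like value was 50 of 1606 at 6.88 CPM. Free RNA held 82.5, 101, 92.5 and 94.5 CPM of Spp1. That is above the tumour-like level and near the anti-PD-1 level of 101 CPM in macrophage sub-clusters. The part of free RNA in these levels was not tested.

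**Figure D4:**
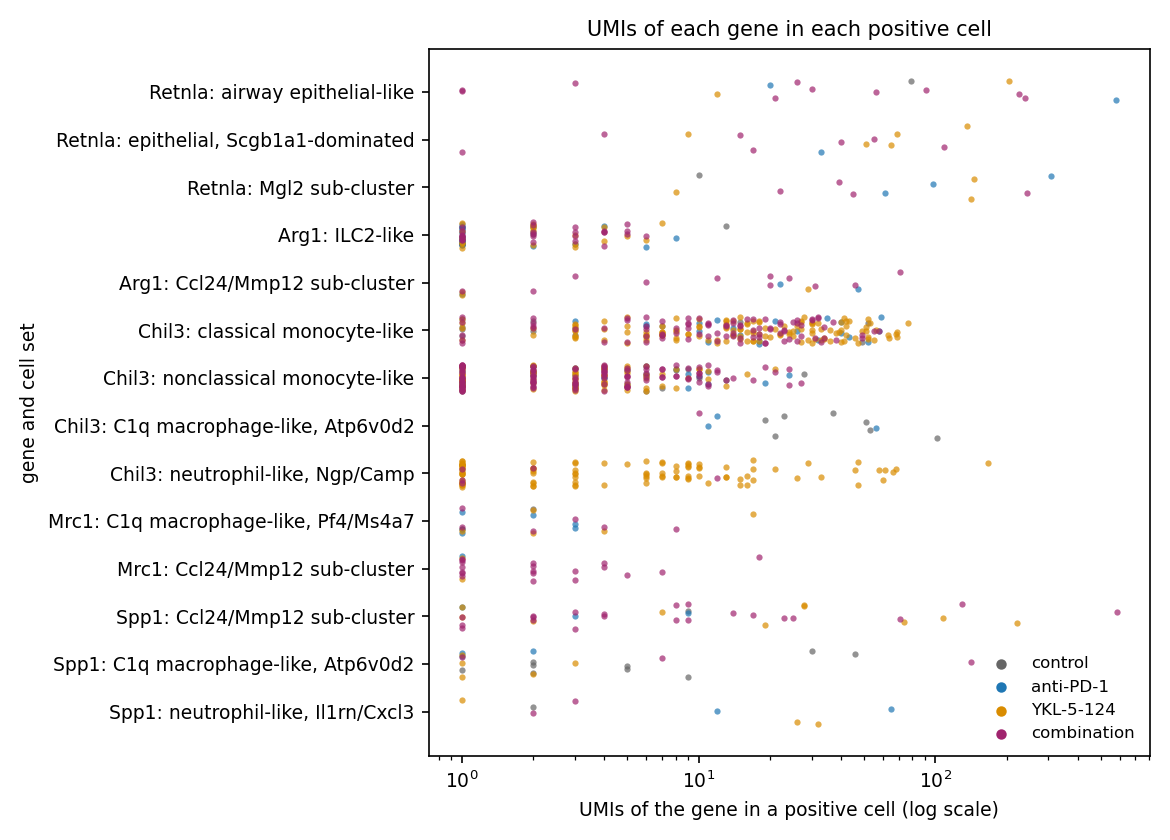
UMIs of a gene (horizontal axis, log scale) in each positive cell of a gene and cell set (vertical axis), coloured by library; points are shifted vertically only to separate them. Retnla reaches 578 UMIs in 1 airway epithelial-like cell and Spp1 585 in 1 cell of the Ccl24/Mmp12 sub-cluster, while Arg1 in ILC2-like cells does not pass 13.

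Detection of several members in the same cell was counted next. Of the 247 macrophage sub-cluster cells, 95 held none of the 5, 90 held 1, 42 held 2, 19 held 3, 1 held 4 and 0 held all 5. Retnla and Arg1 were both found in 1 cell, Retnla and Mrc1 in 7, Arg1 and Chil3 in 17, Arg1 and Spp1 in 16, and Chil3 and Spp1 in 20. Of the 33 Arg1-positive cells, 17 thus held Chil3 and 16 held Spp1, which were found in 60 and 65 of all 247 cells. These counts depend on depth and were not set against an expected number. Of the 142 ILC2-like cells 78 held 1 member and 2 held 2.

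Each treated library was then set against control over the whole monocyte- or macrophage-like class. Of its 1445 cells, 683 were nonclassical and 319 classical monocyte-like, and 247 were in macrophage sub-clusters. Values of the class therefore do not stand for macrophages alone. The same control library serves all 3 comparisons. A gene was counted as higher or lower past a 1.5-fold ratio after adding 10 CPM, among 6466 genes with a mean of at least 10 CPM. Under anti-PD-1, 2 of the 5 members were higher (Retnla and Arg1) and 1 lower (Spp1), beside 6.96% of all genes higher, 5.18% lower and 12.1% either. Under YKL-5-124, 2 were higher (Retnla and Arg1) and 1 lower (Mrc1), beside 5.41%, 4.39% and 9.81%. Under the combination, 3 were higher (Retnla, Arg1 and Spp1) and 0 lower, beside 4.92%, 2.92% and 7.84%. The members were chosen with these contrasts known, so nothing is read from those counts.

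In this class Retnla was 17.1, 772, 141 and 200 CPM, ratios to control of 45.1 (interval 24.3 to 94.7), 8.23 (4.41 to 17.3) and 11.7 (6.31 to 24.6). The positive cells were 1 of 178, 7 of 196, 5 of 503 and 11 of 568, and the control value was 10 UMIs in 1 cell. Summed airway epithelial markers in the class were 17.1, 32.8, 36.0 and 64.1 CPM (2, 2, 4 and 5 of 10 markers detected). Summed T cell markers were 51.3, 46.8, 39.8 and 142 CPM in the class and 102, 72.9, 125 and 1079 CPM in C1q-named cells (5, 6, 9 and 9 of 9 detected). Both were highest in the combination library, and their part in the member levels was not tested. The Retnla-positive cells were 0.562% (interval 0.0142% to 3.09%), 3.57% (1.45% to 7.22%), 0.994% (0.324% to 2.30%) and 1.94% (0.971% to 3.44%) of the class, and the intervals overlap. Arg1 was 17.1, 314, 34.2 and 102 CPM, ratios of 18.3 (9.76 to 38.8), 2.0 (1.02 to 4.34) and 5.95 (3.18 to 12.6), from 3, 12, 8 and 12 positive cells. With every cell weighted equally, the Arg1 ratio under YKL-5-124 was 0.897.

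Chil3, with the most UMIs and so the narrowest intervals, had ratios of 1.26 (interval 1.14 to 1.39), 1.5 (1.39 to 1.63) and 1.36 (1.26 to 1.48). The share of classical monocyte-like cells in the class, where the pooled Chil3 level was highest, was also higher in the treated libraries. The ratio within those cells was larger than in the class. In control the Atp6v0d2 sub-cluster was higher, at 5268 CPM against 1489 CPM in classical monocyte-like cells. In the macrophage sub-clusters of the same class the Chil3 ratios were below 1. Mrc1 had ratios of 1.03 (0.570 to 1.86), 0.393 (0.226 to 0.692) and 0.952 (0.602 to 1.56), beside the smaller share of C1q-named cells in the YKL-5-124 and combination libraries. Within C1q-named cells the summed level was even, with the Pf4/Ms4a7 and Atp6v0d2 sub-clusters going in different directions as given above.

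Spp1 was 192, 32.8, 256 and 465 CPM, ratios of 0.171 (interval 0.102 to 0.274), 1.33 (1.09 to 1.65) and 2.42 (1.99 to 2.97), from 11, 8, 30 and 30 positive cells. The Ccl24/Mmp12 sub-cluster made up 1.12%, 3.06%, 4.77% and 8.10% of the class. With the sub-clusters that took no subset name left out, an alternative chosen after seeing the data, the combination ratios became 0.0307 for Arg1 and 0.475 for Spp1, and the YKL-5-124 ratio of Spp1 became 0.0966. The direction of Arg1 under the combination, and of Spp1 under YKL-5-124 alone and combined, thus turned on whether those cells were counted.

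**Figure D5:**
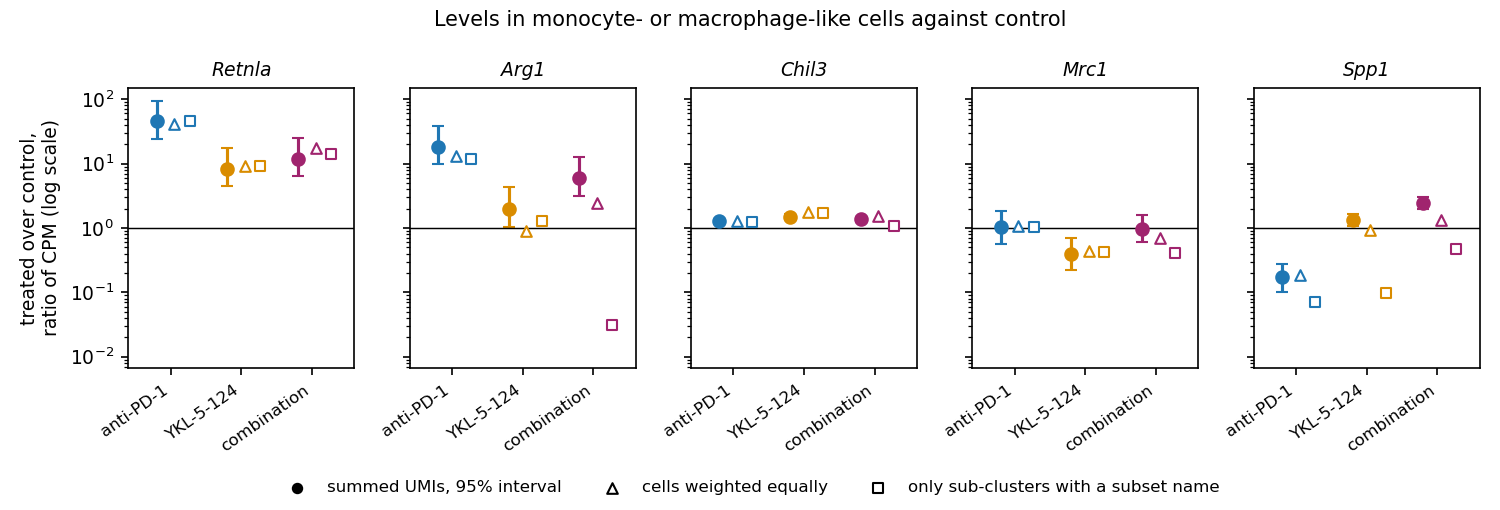
Ratio of CPM in monocyte- or macrophage-like cells, each treated library over control (vertical axis, log scale), for each gene; filled circles are summed UMIs with exact 95% intervals for counting error, triangles weight every cell equally, and squares keep only sub-clusters with a subset name. The Spp1 square under the combination lies at 0.475 against a circle at 2.42, while the 3 Retnla circles all lie above 8.

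Several gene lists were counted in the same class by the same rule. Among all genes, 6.96% were higher and 5.18% lower under anti-PD-1, 5.41% and 4.39% under YKL-5-124, and 4.92% and 2.92% under the combination. These shares are the background for every list count below. The first list held genes of the interleukin-4 and interleukin-13 pathway. Under anti-PD-1, 0 of its 12 measured receptor and signalling genes passed 1.5-fold either way, with a list median log2 ratio of -0.09 against 0.02 over all genes. Under YKL-5-124, 0 were higher and 4 lower, with a median of -0.26 against 0.04. These were Egr2, an early response transcription factor (13.8 against 37.7 CPM in control), Pparg, the nuclear receptor of lipid-handling macrophages (21.3 against 42.8), Il2rg, the common cytokine receptor chain (77.3 against 130 CPM), and Cebpb (119 against 197 CPM). Under the combination 1 was higher, Cish at 37.8 against 20.5 CPM, and 1 lower, Tyk2 at 18.1 against 34.2, with a median of -0.13 against 0.03. Cish is a feedback inhibitor and Tyk2 a receptor kinase.

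Other targets of alternative activation split in direction. Under anti-PD-1, 2 of 14 measured were higher and 3 lower, with a median log2 ratio of 0.03. The chemokine gene Ccl8 was 74.9 against 8.56 CPM in control (48 and 5 UMIs), and Ccl24, an eosinophil attractant, was 343 against 135 CPM. Ccl17, Mmp12 and the growth factor gene Igf1 were lower at ratios of 0.423, 0.468 and 0.445. Under YKL-5-124, 0 were higher and 6 lower (median -0.52), among them Ccl24 at 32.7 CPM and Mmp12 at 120 against 366 CPM. Under the combination 4 were higher and 3 lower (median 0.10): Ccl17 was 1992 against 457 CPM, Ccl24 530 against 135 CPM and Mgl2 261 against 70.2 CPM, while Igf1 was 12.9 against 70.2 CPM. Ccl17 was 10024 CPM and Ccl24 2102 CPM in the Ccl24/Mmp12 sub-cluster, which held Arg1, Chil3, Mrc1 and Spp1 but 0 Retnla-positive cells of 78. In the Mgl2 sub-cluster, Ccl17 was in 1 of 11 Retnla-positive and 9 of 15 other cells. Ccl17 was also the first leading gene of dendritic cell-like sets, among them those with Cd209a and Xcr1.

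None of the 8 cytokines listed as inducers or myeloid growth factors was measured in the class at the 10 CPM minimum. Il13, the type 2 cytokine gene, was 115 CPM in ILC2-like cells and 405 CPM in basophil- or mast cell-like cells, where Il4 was 157 CPM. Of 6 measured arginine and polyamine genes, 1, 2 and 2 were higher and none lower in the 3 comparisons. The list medians of log2 ratios were 0.04, -0.02 and 0.04. Srm was among the higher genes each time, from 7, 21 and 41 UMIs against 1 in control. Its intervals take in 1 under anti-PD-1 (0.820 to 288) and YKL-5-124 (0.936 to 241). Ass1, which rebuilds arginine from citrulline, was 77 CPM in control, 128 CPM under YKL-5-124 and 184 CPM under the combination. Of 5 osteopontin receptor genes, 0 passed under anti-PD-1 and 1, the integrin gene Itgb5, was lower under YKL-5-124 and the combination (44.5 CPM in control against 18 and 18.1 CPM). Cd44, another osteopontin receptor, was 428, 300, 331 and 353 CPM.

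Of 9 lipid-associated macrophage genes, 0 were higher and 1 lower under anti-PD-1, 2 higher and 3 lower under YKL-5-124, and 2 higher and 2 lower under the combination. The list medians of log2 ratios in these 3 comparisons were -0.09, -0.26 and -0.33. Trem2, a lipid receptor, was higher at ratios of 2.15 and 1.99 in the last 2, and Lpl, the lipoprotein lipase gene, lower at 0.252 and 0.367. Of 12 classical activation genes, 3 were higher and 1 lower under anti-PD-1, 2 and 2 under YKL-5-124, and 2 and 1 under the combination. Their list medians in the 3 comparisons were -0.10, -0.26 and -0.06. Cxcl10, an interferon-induced chemokine, was higher in all 3, at ratios of 4.98, 2.20 and 2.51. Il6 was also higher in all 3, at 6.84, 4.30 and 6.41, which rest on 2 control UMIs. Ccl5 was higher under anti-PD-1, at 3.86 (interval 2.75 to 5.51). Tnf was lower under anti-PD-1 at 0.528, from 11 UMIs against 19 in control, with an interval of 0.227 to 1.17 that takes in 1.

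Paralogs of the members had patterns of their own. Retnlg, the closest relative of Retnla listed, was a neutrophil transcript, in 899 of 1015 neutrophil-like cells at 27662 CPM and in 63 of 1445 class cells at 15 CPM. Retnla was found in only 1 of the 661 cells of the largest neutrophil-like cluster, where Retnlg is among the leading genes. Arg2, the mitochondrial arginase, was in 544 of 1015 neutrophil-like cells at 550 CPM. In tumour-like cells it was in 1057 of 3606 cells at 54.5 CPM. Chil1 was 401 CPM in neutrophil-like and 404 CPM in epithelial cells. Chil4 is a near-identical copy of Chil3, so how reads were split between them is uncertain; in airway epithelial-like cells Chil4 had 4 UMIs in 1 cell.

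Across 28 cell sets of at least 30 cells, each pooled over libraries, the genes with patterns most like a member were ranked by Pearson r of log2(CPM + 10) among 7458 genes. The sets share libraries and differ in depth, and r is a description. The Mgl2 sub-cluster, with 26 cells, fell below the minimum and was left out. The values for Retnla therefore do not cover the immune cells that held most of it. For Retnla they were Cbr2 (0.96), Sftpa1 (0.90), Gsta3 (0.90), Cyp2f2 (0.89) and Cxcl17 (0.89). For Arg1 they were Hpgds (0.82), Ccl24 (0.75), Ccl12 (0.75), Mmp12 (0.73) and Tma16 (0.70). Within the Ccl24/Mmp12 sub-cluster, by contrast, Mmp12 was in 4 of 17 Arg1-positive cells and 36 of 61 others. For Chil3 they were F10 (0.87), Gdpd3 (0.85), Msr1 (0.85), Cybb (0.84) and Gm21188 (0.84). For Mrc1 they were Mmp12 (0.95), C1qb, C1qc and C1qa (0.94 each) and Fcrls (0.90). For Spp1, Gpnmb (0.80) led, before Atp6v0d2, Fnip2, Ralgds and Comtd1. Among the members themselves r was highest for Arg1 with Mrc1 (0.66), Arg1 with Spp1 (0.59) and Mrc1 with Spp1 (0.46). Retnla had 0.33 with Mrc1, 0.13 with Arg1, -0.12 with Chil3 and -0.04 with Spp1.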

How the data were processed

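The authors deposited unnormalized UMI counts, 1 matrix of genes by barcodes for each of 4 libraries (1 per group). Per the file headers the matrices were written by software version 3.0.0, and the submitters' processing notes name Cell Ranger and bcl2fastq. Those notes name hg19, whereas the gene identifiers are mouse, so which build and annotation served for counting was not given in the sources used here. Locations are from GENCODE M21 and promoters from RefSeq.

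Barcodes with at least 500 UMIs, 300 genes and at most 10% mitochondrial UMIs were kept. Scrublet's automatic threshold marked under 0.5% of barcodes, so the highest-scoring barcodes were removed instead, at an assumed rate of 0.8% for each 1000 barcodes of a library (97 control, 60 anti-PD-1, 138 YKL-5-124 and 131 combination barcodes). For clustering, counts were scaled to an equal total per cell and log-transformed, and 2000 variable genes were kept and each scaled. These were reduced to 30 components and clustered (Leiden, 15 neighbours, resolution 1, 25 clusters) without the 5 members and their paralogs. A name needed 3 of its markers at 2-fold in at least 10% of cells. The monocyte and macrophage sub-clustering resolution of 1.5, the skipping of haemoglobin and rarely detected genes among leading genes and the split of the epithelial cluster were chosen after seeing the data.

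UMIs were summed per cell set and library. With 1 library per group no test was run. The confidence level of all intervals was 95%. Ratios were recomputed under the alternatives given in the closing section, and the scripts were tested on simulated data. The members and gene lists were chosen with earlier results of these data known. Named were the 5 members, up to 4 genes per list and comparison with the largest ratio, the 5 genes most like each member, paralogs and markers. Clec7a was not among the genes matched, so 19 of 20 alternative activation targets were looked up. Cells were processed with scanpy 1.11.5, scikit-learn 1.9.0, leidenalg 0.10.2 and igraph 0.11.9, and sums and intervals with SciPy 1.17.1, NumPy 2.4.6 and pandas 2.3.3 under Python 3.11.15; Matplotlib 3.10.9 drew the figures.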

Additional observations from a re-analysis of the deposited data

How the results depend on the processing

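With 1 library a group no result has a replicate check, and the low number of control cells (178 in the class, 7 epithelial, 20 classical monocyte-like) and of positive cells limits every ratio. No paired analysis was possible because each group has a single library. The ratios below are in the monocyte- or macrophage-like class. With cells weighted equally, Arg1 under YKL-5-124 turned from 2.0 to 0.897, Arg1 under the combination was 2.45, Chil3 was 1.77 under YKL-5-124 and 1.53 under the combination, and Spp1 turned to 0.917 under YKL-5-124 and was 1.32 under the combination. Without the sub-clusters that took no subset name, chosen after seeing the data, Arg1 under the combination turned from 5.95 to 0.0307 and Spp1 from 2.42 to 0.475. In the same setting Spp1 was 0.0710 under anti-PD-1 and 0.0966 under YKL-5-124, Chil3 1.74 under YKL-5-124 and 1.06 under the combination, and Mrc1 0.401 under the combination; in each of these changes the cells counted differ by construction. With doublets kept, Chil3 under anti-PD-1 was 1.42. Counts of genes past 1.5-fold (785, 634 and 507 under anti-PD-1, YKL-5-124 and combination) became 1447, 1286 and 1146 with 1 CPM added in place of 10, and 1321, 955 and 817 with no minimum level. Asking for 2 UMIs in a positive cell gave shares of 28.9% for Arg1 in ILC2-like cells (main 54.9%) and 8.91% in macrophage sub-clusters (13.4%). For Chil3 it gave 26.1% in nonclassical monocyte-like cells (36.5%), 18.6% in macrophage sub-clusters (24.3%) and 25.8% in Ngp/Camp neutrophil-like cells (36.2%). It gave 14.6% for Mrc1 (24.7%) and 19.4% for Spp1 (26.3%) in macrophage sub-clusters, and 3.28% for Spp1 in endothelial cell-like cells (6.56%). Thinned to 1000 UMIs, the shares were 38.3% for Arg1 in ILC2-like cells, 72.8%, 25%, 16% and 26.8% for Chil3 in classical (main 80.6%), nonclassical, macrophage and Ngp/Camp cells, and 9.70% for Mrc1 and 15.2% for Spp1 in macrophage sub-clusters. All 31 values recomputed without shared barcodes, the 18 with at least 1000 UMIs a cell and the 15 each with clustering resolution 2 and with free RNA subtracted moved by less than their counting intervals (for counts of genes, by under 1.5 times).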
